A study of Mus musculus with 8 samples.

Results

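The mRNAs of 9 nonsense-mediated mRNA decay (NMD) factors were examined in activated mouse B cells of control and conditional *Eif4a1* knockout genotype. The genes *Upf1*, *Upf2*, *Upf3a*, *Upf3b*, *Smg1*, *Smg5*, *Smg6*, *Smg8* and *Smg9* were chosen by name, and all 9 were found among the 53242 genes of the deposited tables. Splenic B cells came from C57BL/6 mice aged 8 to 12 weeks that were Eif4a1+/+ CD23-cre (control) or Eif4a1fl/fl CD23-cre (4A1 KO), so both groups carried the Cre transgene. This transgene deletes *Eif4a1* from the splenic immature B cell stage onwards. All cells were cultured for 24 h on irradiated CD40LB feeder cells, which display CD40 ligand and BAFF, with IL4 at 40 ng/ml, and the feeders were then depleted with an antibody to H-2Kd. Each genotype gave 4 libraries. Males gave replicates 1 and 3 and females replicates 2 and 4. Batch A comprised replicates 1 and 2, whereas 3 and 4 belonged to batch B. The edgeR and limma comparisons of the genotypes used replicates 2 to 4 (n = 3 per genotype), because the study removed the batch A males for reduced viability. Values are shown for all 8 libraries, and the exact permutation tests and the comparisons of sexes and batches included replicate 1 unless stated otherwise.

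NMD removes mRNAs on which a ribosome terminates in an unusual context, such as upstream of an exon junction or far from the poly(A) tail, and it acts only on mRNAs that are being translated. UPF1, an RNA helicase, is recruited to the terminating ribosome and phosphorylated by the kinase SMG1, which SMG8 and SMG9 bind and restrain. UPF2 bridges UPF1 to UPF3A or UPF3B, and UPF3B contacts the exon junction complex left by splicing. Phosphorylated UPF1 then recruits the endonuclease SMG6 or the adaptor SMG5, which leads to deadenylation and decapping. In B cells the pathway is known for clearing immunoglobulin transcripts from non-productive rearrangements, and in many cell types mRNAs of the NMD factors are themselves substrates.

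Between 31727557 and 43210858 reads were counted per library, and at least 38488341 in the 6 libraries of the tests. Controls 1 to 4 had 974, 933, 1142 and 1136 TPM of the targeted gene, *Eif4a1*, while 4A1 KO 1 to 4 had 712, 700.4, 827 and 843 TPM, so the genotypes did not overlap. The counts cover the whole gene and not only the deleted exons. For *Eif4a1* the log2 fold change came to -0.44 (SE 0.05, adjusted p = 1.15e-04 by edgeR with Benjamini-Hochberg adjustment, n = 3 per genotype). All 6 B cell markers examined were detected. Their summed level was 2373 to 2590 TPM in control and 1727 to 1934 in 4A1 KO, where *Cd79a*, *Cd79b*, *Cd22* and *Pax5* were decreased past an adjusted p of 0.05 while *Ms4a1* was not. The 6 fibroblast markers summed to 3.20 to 14.6 TPM in control and 4.97 to 9.52 in 4A1 KO, the 5 myeloid markers to 2.71 to 5.32 and 4.02 to 6.22, and the 5 T cell markers to 0.135 to 0.367 and 0 to 0.183. Among these, *Fn1* and *Adgre1* were increased and *Col3a1* decreased past an adjusted p of 0.05 in the counts. *Fn1* did not pass in the TPM (adjusted p = 0.0622, limma), and *Col3a1*, with 1 to 38 counts per library, did not pass with all 8 libraries (0.201, edgeR). The myeloid *S100a8* was at 0 in all libraries. Whether other cells or the lower B cell marker level had a part in the results below was not tested. In bulk RNA, fewer cells of a type and less RNA per cell cannot be told apart.

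All 9 genes were well measured, with between 1342 and 11325 counts per gene and library, and all 9 passed the filter on low counts. TPM are scaled by library size and by transcript length and can be compared between genes. By mean TPM over the 4 control libraries, *Smg5* was the most abundant at 119 ± 5.29 (SD, n = 4), with no overlap with the next gene. *Upf1* (70.1 ± 13.2), *Upf3a* (59.7 ± 5.18), *Smg9* (52.6 ± 4.00) and *Upf3b* (49.8 ± 3.13) followed, and the ranges of neighbours in this order overlapped. *Upf2* had 36.6 ± 3.05 TPM and overlapped with neither neighbour. The lowest were *Smg8* (28.2 ± 3.55), *Smg6* (28.1 ± 1.92) and *Smg1* (22.7 ± 2.74), whose neighbouring ranges overlapped. In 4A1 KO B cells *Smg5* was again highest at 126 ± 6.97 TPM. *Upf3a* was second at 88.8 ± 7.81 TPM, above *Upf1* at 69.0 ± 7.34, and the 4A1 KO libraries of these genes did not overlap. *Upf3b*, *Smg6*, *Upf2*, *Smg1* and *Smg8* followed *Smg9* at 22.03 to 41.2 TPM, and among them the ranges of neighbours in this order overlapped.

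In 4A1 KO B cells the NMD factor mRNAs changed in both directions. *Upf3a*, *Smg1* and *Smg6* were increased and *Upf2* and *Upf3b* were decreased at an adjusted p under 0.05, whereas *Upf1*, *Smg5*, *Smg8* and *Smg9* did not pass. These 5 of 9 genes stand beside 53.0% of all 14218 tested genes, 26.3% increased and 26.7% decreased, so the share was close to the background. *Upf3a* alone also passed the study's fold threshold (absolute log2 fold change above 0.5), as did 25.3% of all tested genes. The median log2 fold change of the 9 genes was 0.04 and that of all tested genes 0.01. In the TPM the same 5 genes passed an adjusted p of 0.05 (limma), beside 50.7% of the 12976 genes that averaged 1 TPM or more, and *Upf3a* alone passed the fold threshold too, beside 20.2% of them. Over all 8 libraries the TPM of the genotypes did not overlap for *Upf3a*, *Smg6* and *Upf3b* (3 of 9), as for 35.6% of genes.

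**Figure D1:**
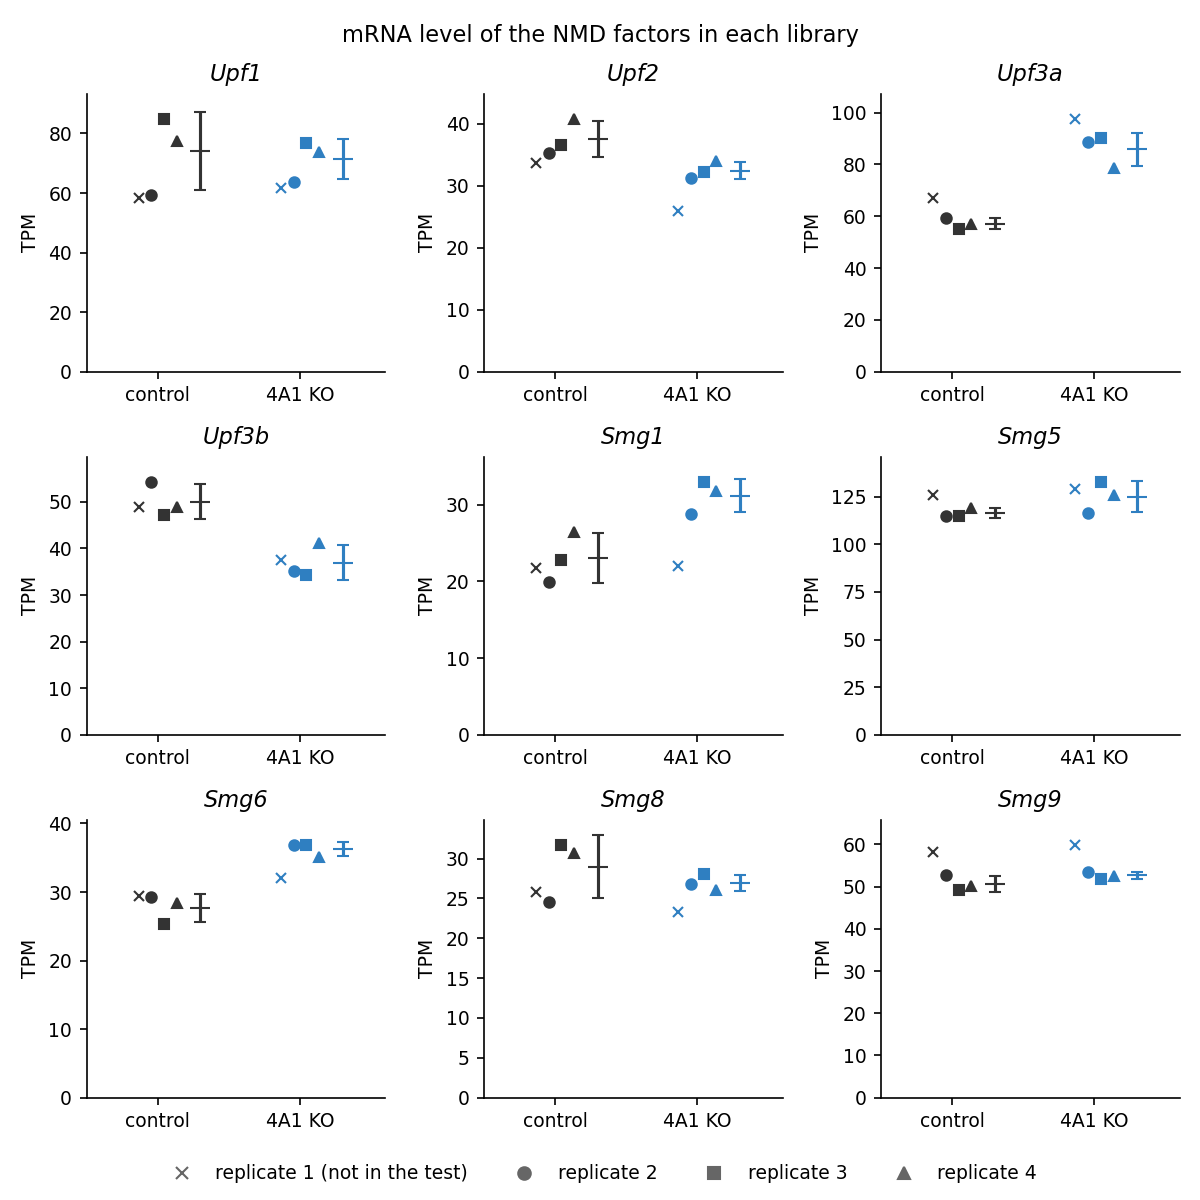
TPM (vertical axes, from 0) of the 9 NMD factors in each control (dark) and 4A1 KO (blue) library, with the mean ± SD of replicates 2 to 4 beside the points. The points of the genotypes are apart for *Upf3a*, *Upf3b* and *Smg6* in all 4 replicates, and *Smg1* of 4A1 KO 1 (22.03 TPM) lies among the controls.

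**Figure D2:**
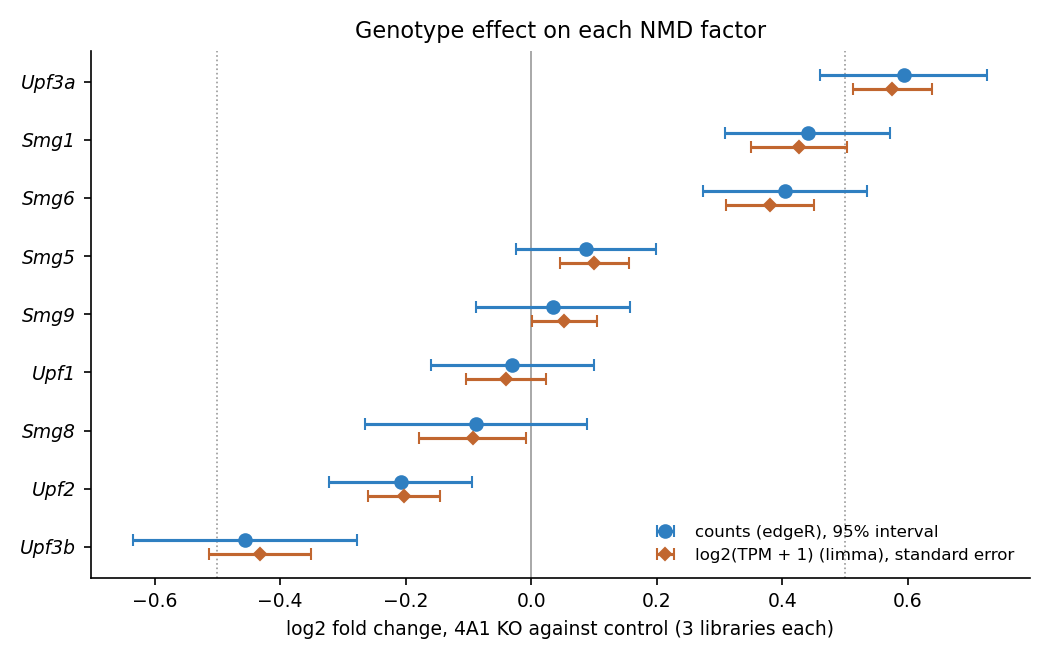
Log2 fold change of each NMD factor between 4A1 KO and control (horizontal axis, n = 3 per genotype), from the counts with a 95% interval and from log2(TPM + 1) with a standard error. The dotted lines mark the fold threshold of 0.5, and only *Upf3a*, at 0.59 in the counts and 0.58 in the TPM, lies beyond it.

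The UPF3 paralogs moved in opposite directions. *Upf3a* encodes the paralog that binds UPF2 but is the weaker activator of decay. Its TPM were 67.0, 59.3, 55.3 and 57.1 across controls 1 to 4, whereas 4A1 KO 1 to 4 had 97.6, 88.8, 90.2 and 78.6. All 4A1 KO libraries exceeded all controls (p = 0.0286, two-sided exact permutation test, which cannot give less with 4 against 4), as in 16.0% of genes. Between the genotypes *Upf3a* had a log2 fold change of 0.59 (SE 0.06, adjusted p = 6.05e-05 by edgeR with Benjamini-Hochberg adjustment, n = 3 per genotype), a 1.51-fold increase, and 88.9% of the tested genes had a lower value. Within pairs of the same replicate number the TPM rose by 45.6%, 49.9%, 63.2% and 37.7% in replicates 1 to 4.

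*Upf3b* encodes the paralog that links UPF2 to the exon junction complex. Its TPM were 49.0, 54.3, 47.1 and 48.8 across controls 1 to 4, whereas 4A1 KO 1 to 4 had 37.5, 35.1, 34.4 and 41.2. All 4A1 KO libraries lay under all controls (p = 0.0286, two-sided exact permutation test), as in 19.6% of genes, and 4A1 KO 4 was the highest of its group. For *Upf3b* the log2 fold change came to -0.46 (SE 0.08, adjusted p = 0.00126 by edgeR with Benjamini-Hochberg adjustment, n = 3 per genotype). Without replicate 4 it was -0.56, past the fold threshold, and without replicate 2 it was -0.36. *Upf3b* lies on the X chromosome, and both genotypes had equal numbers of males and females.

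The ratio of *Upf3a* to *Upf3b* TPM within a library was 1.37, 1.09, 1.17 and 1.17 across controls 1 to 4, whereas 4A1 KO 1 to 4 had 2.61, 2.53, 2.62 and 1.91. The ratio averaged 1.14 ± 0.0466 for the controls and 2.35 ± 0.387 for 4A1 KO (SD, n = 3), 2.06 times as high. *Upf3a* was the more abundant paralog in all 8 libraries. The ratios of the genotypes did not overlap, which follows from the separation of both genes given above and is no further result.

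**Figure D3:**
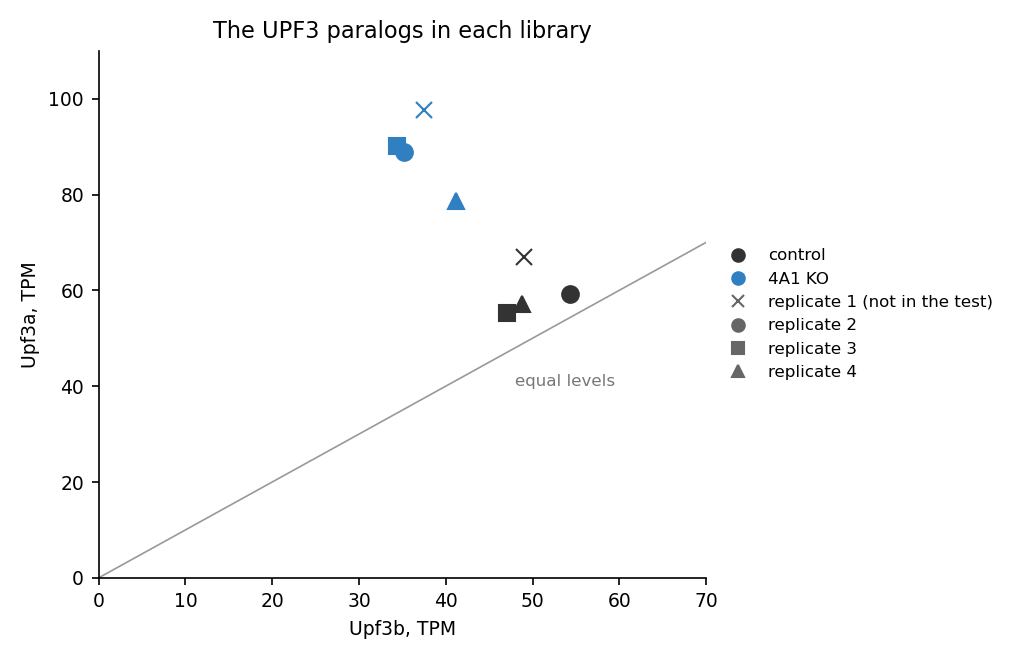
TPM of *Upf3a* (vertical axis) against TPM of *Upf3b* (horizontal axis) in each of the 8 libraries, with control dark, 4A1 KO blue, a symbol for each replicate number and a line where both genes are equal. The control libraries sit near the line, with ratios of 1.09 to 1.37, and the 4A1 KO libraries lie above it, with ratios of 1.91 to 2.62.

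*Upf2*, the bridge between UPF1 and the UPF3 proteins, had 33.7, 35.2, 36.5 and 40.8 TPM across controls 1 to 4, whereas 4A1 KO 1 to 4 had 26.0, 31.2, 32.2 and 33.9. Within the pairs of replicates 1 to 4 the difference was -22.9%, -11.5%, -11.9% and -16.8%, but 4A1 KO 4 lay above control 1, so the genotypes overlapped (p = 0.0571, two-sided exact permutation test). For *Upf2* the log2 fold change came to -0.21 (SE 0.05, adjusted p = 0.00755 by edgeR with Benjamini-Hochberg adjustment, n = 3 per genotype). Without the replicate block it was also -0.21, but with an adjusted p of 0.0639 (edgeR) in the counts and 0.0961 (limma) in the TPM. In the TPM the adjusted p of *Upf2* was 0.0286 with all 3 pairs and 0.0803, 0.0939 and 0.0994 (limma) when replicate 2, 3 or 4 was left out.

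*Upf1*, the central helicase, had 58.5, 59.4, 84.9 and 77.6 TPM across controls 1 to 4, whereas 4A1 KO 1 to 4 had 61.7, 63.8, 76.7 and 73.6. The libraries of replicates 1 and 2 were low and those of replicates 3 and 4 high in both genotypes, which overlapped. Its log2 fold change was -0.03 (95% interval -0.16 to 0.10, adjusted p = 0.689, edgeR with Benjamini-Hochberg adjustment, n = 3 per genotype).

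*Smg1*, the kinase that phosphorylates UPF1, had 21.7, 20.0, 22.8 and 26.5 TPM across controls 1 to 4, whereas 4A1 KO 1 to 4 had 22.03, 28.8, 33.0 and 31.8. In replicates 2 to 4 every 4A1 KO library was above every control, but 4A1 KO 1 was lower than controls 3 and 4. The pairs of replicates 1 to 4 differed by 1.28%, 44.2%, 45.0% and 20.0%. Between the genotypes *Smg1* had a log2 fold change of 0.44 (SE 0.06, adjusted p = 2.83e-04 by edgeR with Benjamini-Hochberg adjustment, n = 3 per genotype). It was 0.52 without replicate 4, past the fold threshold, and 0.34 (adjusted p = 0.00364, edgeR) with all 8 libraries.

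The SMG1 partners did not pass the test. *Smg8* had 24.5 to 31.7 TPM in the 4 control and 23.3 to 28.1 in the 4 4A1 KO libraries, and *Smg9* had 49.1 to 58.1 and 51.8 to 59.9. Their log2 fold changes were -0.09 (95% interval -0.26 to 0.09) and 0.04 (-0.09 to 0.16), with adjusted p of 0.371 and 0.615 (edgeR, Benjamini-Hochberg). The pairs disagreed for *Smg8*, with a difference of 9.10% in replicate 2 and of -9.80%, -11.6% and -15.1% in replicates 1, 3 and 4. The ratio of *Smg1* to *Smg8* TPM was 0.717 to 0.861 in the control and 0.944 to 1.22 in the 4A1 KO libraries, without overlap, and replicate 1 of 4A1 KO had the lowest value of its group. Of 6 ratios computed between the factors, that of *Smg1* to *Upf2* (0.567 to 0.649 and 0.848 to 1.03) did not overlap either. The ratios of *Smg8* to *Smg9* (0.445 to 0.646 and 0.390 to 0.542), *Upf3b* to *Upf2* (1.20 to 1.54 and 1.07 to 1.44) and *Smg6* to *Smg5* (0.220 to 0.255 and 0.248 to 0.317) overlapped between the genotypes.

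Of the mRNAs for the effectors downstream of UPF1, *Smg6* increased and *Smg5* did not pass. *Smg6* encodes the endonuclease that cuts the targeted mRNA, and had 29.5, 29.3, 25.3 and 28.4 TPM across controls 1 to 4, whereas 4A1 KO 1 to 4 had 32.02, 36.9, 36.8 and 35.1. The genotypes did not overlap (p = 0.0286, two-sided exact permutation test), although replicate 1 had the smallest difference, 8.69%, against 26.0%, 45.4% and 23.5% in replicates 2 to 4. For *Smg6* the log2 fold change came to 0.40 (SE 0.06, adjusted p = 4.45e-04 by edgeR with Benjamini-Hochberg adjustment, n = 3 per genotype). *Smg5*, the adaptor, had 115 to 126 TPM in the 4 control and 116 to 133 in the 4 4A1 KO libraries. Its log2 fold change was 0.09 (95% interval -0.02 to 0.20, adjusted p = 0.164, edgeR), although it was higher in 4A1 KO in each of the 4 pairs, by 1.31% to 15.5%.

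The positions of the genes and the features of their reference transcripts were read from the GENCODE M39 annotation of GRCm39, the build of the deposited files. *Upf1* lies on chromosome 8 from 70784146 to 70806096, *Upf2* on chromosome 2 from 5956186 to 6061516, *Upf3a* on chromosome 8 from 13835584 to 13849194 and *Upf3b* on chromosome X from 36355174 to 36374019. *Smg1* and *Smg9* are on chromosome 7 (117730527 to 117842893 and 24098984 to 24122426), *Smg5* on chromosome 3 (88243555 to 88269646), and *Smg6* and *Smg8* on chromosome 11 (74816618 to 75055274 and 86967305 to 86977600). Chromosome 11 also holds the targeted gene, and *Smg6* lies 5.25 Mb and *Smg8* 17.4 Mb from it. The coding sequence of 8 of the 9 exceeded the median of 1311 nt over 10392 coding genes that averaged 1 TPM or more, and *Smg1* had the longest with 10974 nt in 63 exons. The untranslated region after the stop codon was above the median of 1266.5 nt in 3 of the 9, with 4240 nt in *Smg1*, 1501 in *Smg6* and 1477 in *Smg8*, and it was 722 nt in *Upf3a* and 840 nt in *Upf3b*.

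Each of the 9 genes has annotated transcripts of the NMD class, which carry a premature stop codon. There are 11 of 22 transcripts for *Upf3a*, 11 of 25 for *Upf1*, 6 of 14 for *Upf3b*, 3 of 12 for *Smg1* and 7 of 17 for *Smg6*. The counts merge all isoforms of a gene, so changes in productive and non-productive transcripts were not told apart. No other annotated gene shared a stretch of at least 50 nt at 95% identity in the same orientation with *Upf2*, *Upf3b*, *Smg1*, *Smg5*, *Smg6* or *Smg9*. *Upf3a* shared such stretches with 9 genes, but the longest was 173 of its 2060 nt, and *Upf3a* and *Upf3b* shared none with each other. For *Smg8* the longest of 12 was 123 of 4471 nt, and for *Upf1* 58 of 4782 nt. Genes on the opposite strand overlap several of the 9, among them *Hic1* and *Srr* within *Smg6*, and the counting was strand-specific. On the same strand *Gm45084* overlaps *Smg1* and *Gm72316* overlaps *Smg6* in gene span, but neither shared a stretch of that length with the reference transcript of the factor.

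The other genes of the pathway were then counted in lists, to be read beside the 53.0% of all tested genes that passed an adjusted p of 0.05 (edgeR), 26.3% increased and 26.7% decreased. Of 12 exon junction complex genes, 2 were increased, 2 decreased and 8 did not pass, so that 33.3% passed beside 53.0% of all genes, and the median log2 fold change was -0.05. *Eif4a3*, the helicase at the core of the complex and a relative of *Eif4a1*, averaged 406 ± 10.3 TPM in control B cells and 390.4 ± 4.55 TPM without *Eif4a1* (SD, n = 3), and its log2 fold change of -0.07 had an adjusted p of 0.198 (edgeR). *Casc3*, another core component, rose by 0.43 and *Rbm8a*, which encodes the Y14 subunit, by 0.23 on the log2 scale. *Alyref*, an mRNA export adaptor, fell by 0.54 and *Pnn*, a peripheral splicing component, by 0.23.

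Among 9 NMD cofactors, 2 were increased, 4 decreased and 3 did not pass (median log2 fold change -0.11), which is 66.7% passing beside 53.0% of all genes. In the TPM 2 were increased and 3 decreased (limma), beside 50.7% of all genes in either direction. *Tti2*, a cochaperone needed for the maturation of SMG1 and related kinases, rose by 0.41 on the log2 scale. Its mean was 21.7 ± 3.08 TPM in control and 27.99 ± 1.11 TPM in 4A1 KO B cells (SD, n = 3). *Nbas* fell by 0.22, and *Ruvbl1* and *Pnrc2* each by 0.18 on the log2 scale. NBAS acts in NMD at the endoplasmic reticulum, RUVBL1 is an ATPase that associates with SMG1, and PNRC2 connects UPF1 to decapping. Of 5 kinases of the SMG1 family, *Mtor* (0.31) and *Atr* (0.17) were increased and *Prkdc* (-0.29) was decreased, with 2 not past the test, which is 60.0% passing beside 53.0% of all genes. With all 8 libraries *Atr* no longer passed (adjusted p = 0.0954, edgeR).

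Of 7 genes for translation termination, cap binding and poly(A) binding, 2 were increased, 2 decreased and 3 did not pass (median 0.07), and the 57.1% that passed were near the 53.0% of all genes. *Ncbp2*, the small subunit of the nuclear cap-binding complex, had 45.3 to 53.0 TPM in the 4 control and 27.2 to 32.2 in the 4 4A1 KO libraries, without overlap, and a log2 fold change of -0.73. Its partner *Ncbp1* fell by 0.12, whereas *Etf1*, which encodes the release factor eRF1, rose by 0.26 and *Pabpc1*, the cytoplasmic poly(A)-binding protein, by 0.17 on the log2 scale.

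The decapping and deadenylation genes had the widest range of these lists. Of 17 tested genes of 18 listed, 7 were increased, 5 decreased and 5 did not pass, with a median of 0.10, which is 70.6% passing beside 53.0% of all genes. In the TPM 5 were increased and 5 decreased (limma), beside 50.7% of all genes in either direction. *Dcp1b*, a cofactor of the decapping enzyme, had 14.6 to 15.1 TPM in the 4 control and 27.6 to 34.0 in the 4 4A1 KO libraries and a log2 fold change of 1.12, with no overlap. Its paralog *Dcp1a* had a log2 fold change of 0.20 with an adjusted p of 0.0474 (edgeR), but did not pass in the TPM (0.253, limma) or with all 8 libraries (0.115, edgeR), and its pair of replicate 4 differed by -9.88% in the TPM. *Pan3* rose by 0.59 and *Cnot7* by 0.28, and both belong to poly(A)-shortening complexes. *Cnot6*, another deadenylase, fell by 0.74, *Edc3*, an enhancer of decapping, by 0.65, and *Dcp2*, the decapping enzyme itself, by 0.58 in the counts and by 0.40 in the TPM on the log2 scale.

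Finally, 13 transcripts often used as endogenous NMD substrates were examined. Of the 12 that could be tested, 8 were increased, 2 decreased and 2 did not pass, beside 26.3% of all genes increased and 26.7% decreased, and the median log2 fold change was 0.27 beside 0.01 for all tested genes. In the TPM 6 were increased and 3 decreased (limma), beside 50.7% of all genes in either direction. There *Tbl2* (adjusted p = 0.161) and *Atf3* (0.0669) did not pass, and *Snhg12* did as decreased (0.0175). These genes and *Gadd45b* were named after their values were seen. *Snhg15*, a small nucleolar RNA host gene, had 309.8 to 390.4 TPM in the 4 control and 533 to 625 in the 4 4A1 KO libraries, and a log2 fold change of 0.82. *Gas5*, another host gene, had 523 to 707 and 829 to 1183 TPM and a log2 fold change of 0.53. *Atf4*, a stress transcription factor whose mRNA has upstream open reading frames, had 603 to 761 and 819.8 to 1063 TPM and a log2 fold change of 0.46. These 3, chosen for the smallest adjusted p among the increased substrates, were higher in 4A1 KO without overlap, as were *Snhg1* and *Zfas1*. The genotypes overlapped for the other 7 of the 12 tested substrates. Over all genes, 16.0% were higher in 4A1 KO without overlap, and 35.6% did not overlap in either direction. *Ddit3* and *Gabarapl1* fell by 0.29 and 0.22 on the log2 scale in the 6 libraries. With all 8 libraries 6 substrates were increased and 1 decreased, since *Ddit3* (adjusted p = 0.145), *Atf3* (0.113) and *Gadd45b* (0.0810, edgeR) no longer passed. Gene counts do not separate the synthesis of a transcript from its decay.

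**Figure D4:**
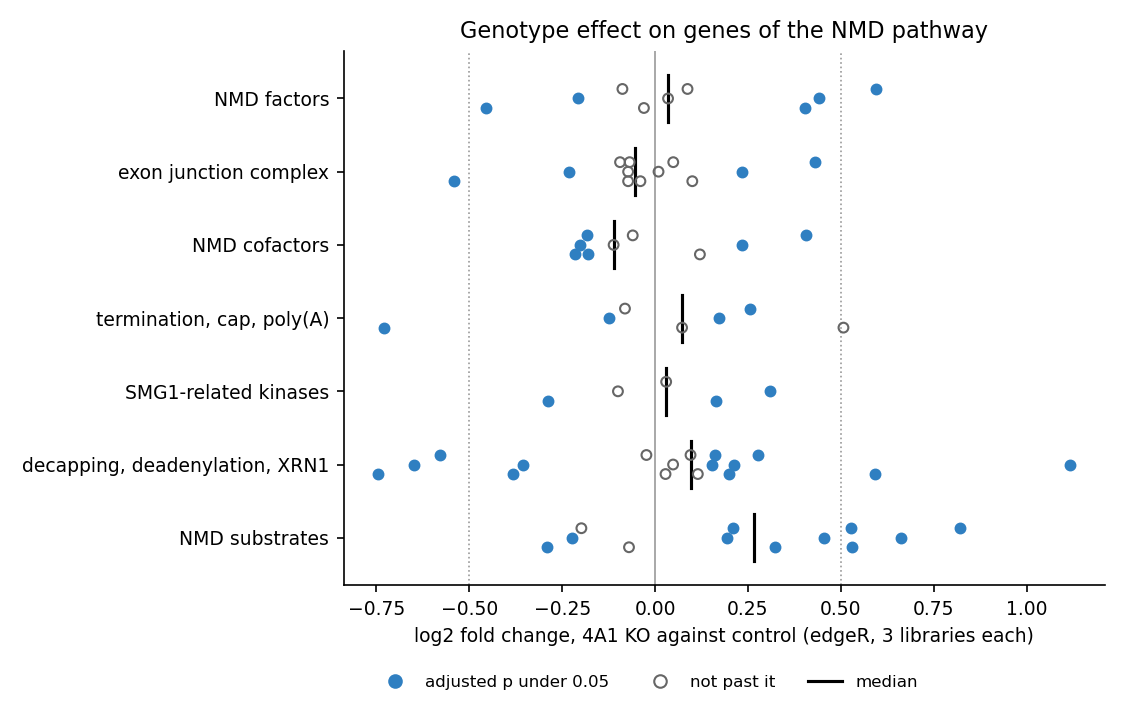
Log2 fold change between 4A1 KO and control (horizontal axis, edgeR, n = 3 per genotype) for each tested gene of the 7 lists, filled where the adjusted p was under 0.05, with the median of each list as a bar and dotted lines at the fold threshold of 0.5. All lists but one have medians between -0.11 and 0.10, and the substrates lie at 0.27.

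The genotype effect on the 9 factors was compared between the sexes and between the batches over all 8 libraries. No interaction passed an adjusted p of 0.05 (edgeR) for any of the 9, and none had an unadjusted p under 0.05. Over all 14211 genes tested, 0 (0.00%) passed for sex and 1 (0.00704%) for batch, while 405 and 610 had an unadjusted p under 0.05. The interaction with batch was -0.21 ± 0.09 (standard error, log2 scale, batch B minus A) for *Upf1*, the largest relative to its error. Each sex and each batch held 2 libraries per genotype. Between males and females none of the 9 factors passed, beside 6.88% of genes.

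The genes whose log2 CPM (counts scaled to the library total) followed *Upf3a* and *Upf1* most closely over the 8 libraries were found among 11830 genes that averaged 1 CPM or more. For *Upf3a* they were *Sun2*, *Eif1* and *Foxp4*, with Pearson's r of 0.999, 0.997 and 0.995, and log2 fold changes of 1.21, 0.76 and 0.62. For *Upf1* they were *Zfp780b*, *2810004N23Rik* and *Lrrc59*, with r of 0.985, 0.962 and 0.962, and none of these 3 passed the test between genotypes. With the mean of each genotype removed, r was 0.993, 0.986 and 0.974 for the genes of *Upf3a* and 0.986, 0.966 and 0.962 for those of *Upf1*. These values describe 8 libraries that share genotype, batch and sex differences.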

How the data were processed

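RNA-seq values of 8 libraries were used. The authors trimmed the reads (Trim Galore 0.6.6), mapped them to GRCm39 with HISAT2 2.1.0 and generated raw counts with Seqmonk over merged isoforms in a strand-specific manner, and the counts were deposited without normalization. The deposited TPM came from StringTie 2.1.1, run by the authors. How multi-mapping reads were counted is not given in the sources used here. Counts were analysed here with edgeR 4.0.16 in R 4.3.3 (filterByExpr, TMM, quasi-likelihood test with batch, sex and genotype). In 6 libraries these covariates are equal to the replicate number as a block. Log2(TPM + 1) was tested with limma 3.58.1 over genes that averaged 1 TPM or more. The Benjamini-Hochberg adjustment ran over all genes tested. Each CPM was scaled with TMM factors of all 8 libraries. The pairing follows batch and sex in the labels. After removal of the genotype means, same-numbered libraries had r of 0.639, 0.613 and 0.494 across genes. With 3 libraries per genotype, this removal ties the r of other pairs (mean -0.291) to that of same-numbered ones. The contrast between them therefore adds no support for the pairing. Both tests were checked on simulated data. Similar transcripts were searched with blastn 2.17.0.

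The factors and lists were chosen with earlier results of these data known. Named are the 9 factors, *Eif4a1*, the first gene of each list, and up to 3 increased and 3 decreased genes of smallest adjusted p in each list, with 3 genes most like *Upf1* and the factor of smallest adjusted p. Some genes that this rule covers are not reported here. *Pat1b* was not found by symbol and *Upp1*, with 1 count in 1 library, did not pass the filter on low counts. The alternatives were DESeq2 1.42.0 with and without shrinkage, other size factors, no filters, a pseudocount of 0.1, no replicate block, all 8 libraries, and each replicate left out.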

Additional observations from a re-analysis of the deposited data

How the results depend on the processing

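The log2 fold changes of *Upf2*, *Upf3a*, *Upf3b*, *Smg1*, *Smg5*, *Smg6*, *Smg8* and *Smg9* kept their direction under every alternative in counts and TPM. That of *Upf1*, near 0, reversed to 0.0037 with all 8 libraries, to 0.0040 with all 8 libraries and the replicate block, and, without replicate 3, to 0.033 in the counts and 0.013 in the TPM (range with 1 replicate left out, -0.10 to 0.033 and -0.11 to 0.013), and it passed the test in none of these. The number of factors past both thresholds was 1, and 1 to 3 when a replicate was left out, in counts as in TPM, with 3 (*Upf3a*, *Upf3b* and *Smg1*) without replicate 4. The number past an adjusted p of 0.05 was 5 in the counts, and 4 without the replicate block, where *Upf2* was lost. In the TPM, where it was 5 too, it was 4 with any replicate left out (*Upf2* lost), without the block (*Upf2*) and without the filter on low TPM (*Upf3b*, adjusted p = 0.0501, limma). The block changed no other call of the 9. With 3 libraries against 3 an exact permutation test cannot give a two-sided p below 0.1. The smallest count of the 9 genes, 1342, has an exact 95% Poisson interval of 1271 to 1416, which covers counting error only.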

Other observations

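Several of the NMD factors differed between the batches. This comparison was chosen after the values had been seen. Over all 8 libraries, with sex and genotype in the edgeR model, batch B was higher than batch A for *Upf1* (log2 difference 0.30, standard error 0.05, adjusted p = 0.00436), *Smg1* (0.26) and *Upf2* (0.19), and lower for *Upf3a* (-0.22) and *Smg9* (-0.20). These 5 of 9 passed an adjusted p of 0.05 (edgeR), beside 28.2% of 14211 genes. For *Upf1*, the TPM of both genotypes were 58.5 to 63.8 in batch A and 73.6 to 84.9 in batch B, without overlap. Without replicate 1, the same difference was 0.23 for *Upf1* (adjusted p = 0.0653, edgeR), and none of the 9 passed, beside 11.4% of 14218 genes. *Upf3b*, on the X chromosome, had a difference between the sexes of -0.05 (standard error 0.07, male minus female, adjusted p = 0.691, edgeR).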
